A study of Homo sapiens with 13 samples.

Results

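Zinc finger genes at the distal end of the long arm of chromosome 19 were followed in HEK293T cells after the H3K9 methyltransferases G9a and GLP were inhibited, and after WIZ or G9a was knocked down. Members were the genes with a symbol of the ZNF, ZSCAN, ZKSCAN or ZFP number series, or ZIK1 or HKR1, with a probe on chromosome 19 starting at 56 Mb or beyond on build 37.1. The brightest probe of each gene was used. This gave 43 genes (45 probes) of the 575 such symbols on the array. Of these, 39 passed the detection filter and were tested. ZNF135, ZNF671, ZFP28 and ZSCAN4 did not pass it. ZNF542 is a pseudogene in RefSeq (ZNF542P). The files give coordinates for 430 of the 575 symbols, so the 43 genes are not the whole cluster.

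HEK293T, an established line from human embryonic kidney with the SV40 large T antigen, was grown in DMEM with fetal bovine serum. UNC0638, a small-molecule inhibitor of G9a (gene EHMT2) and GLP (EHMT1), was given at 1 µM for 48 h against its solvent DMSO in 5 biological replicates on 7 arrays. WIZ siRNA was set against control siRNA at 72 h in 2 biological replicates on 4 arrays. G9a siRNA was set against control siRNA at 72 h in 2 biological replicates on 2 arrays. All siRNAs were transfected with the lipid reagent DharmaFECT 4. The labels do not say whether both siRNA treatments used the same control RNA. They also do not say whether biological replicates were separate cultures, so p-values measure the spread between these samples. Every array carried treated and control RNA in opposite dyes, and all values below are log2 ratios of treated over control unless a percentage is given. UNC0638 replicates 1 and 2 and both WIZ siRNA replicates were hybridised in both dye orientations. UNC0638 replicates 3 to 5 and both G9a siRNA replicates had the treated RNA in Cy5 alone.

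Most human zinc finger genes of this kind encode DNA-binding repressors that arose by tandem duplication and sit in clusters on chromosome 19. Many carry a KRAB domain, which recruits the corepressor TRIM28 and with it the H3K9 methyltransferase SETDB1 and the HP1 proteins. Others carry a SCAN domain, which mediates pairing between such proteins. The clusters themselves are known to carry H3K9 methylation over the exons that encode the zinc fingers. The lower methylation states of H3K9 are placed by G9a and GLP, which work as a pair and bind the zinc finger protein WIZ.

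The sequence upstream of the start site is shown for the members whose values frame the results. ZSCAN18 and ZIK1 had the lowest mean ratios with UNC0638 and with WIZ siRNA. ZNF256 was the member called with WIZ siRNA. ZNF581 had the lowest mean ratio with G9a siRNA. The 250 bases before the RefSeq start are given 5' to 3' on the gene's own strand, build GRCh38.p14, with CG dinucleotides in capitals. They lie at chr19:58118405-58118654 (minus strand, 27 CG) for ZSCAN18, chr19:57583895-57584144 (plus, 17 CG) for ZIK1, chr19:57947707-57947956 (minus, 22 CG) for ZNF256 and chr19:55643399-55643648 (plus, 19 CG) for ZNF581.
ZSCAN18: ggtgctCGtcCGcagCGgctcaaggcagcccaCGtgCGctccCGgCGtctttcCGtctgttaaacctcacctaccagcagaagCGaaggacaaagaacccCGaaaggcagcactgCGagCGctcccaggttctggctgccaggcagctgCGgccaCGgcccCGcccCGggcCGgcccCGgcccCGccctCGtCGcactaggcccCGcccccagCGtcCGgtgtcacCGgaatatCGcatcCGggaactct
ZIK1: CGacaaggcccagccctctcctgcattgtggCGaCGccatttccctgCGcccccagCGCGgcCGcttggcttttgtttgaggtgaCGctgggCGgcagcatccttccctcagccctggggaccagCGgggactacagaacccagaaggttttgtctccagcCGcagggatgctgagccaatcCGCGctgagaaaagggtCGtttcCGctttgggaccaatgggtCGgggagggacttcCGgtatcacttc
ZNF256: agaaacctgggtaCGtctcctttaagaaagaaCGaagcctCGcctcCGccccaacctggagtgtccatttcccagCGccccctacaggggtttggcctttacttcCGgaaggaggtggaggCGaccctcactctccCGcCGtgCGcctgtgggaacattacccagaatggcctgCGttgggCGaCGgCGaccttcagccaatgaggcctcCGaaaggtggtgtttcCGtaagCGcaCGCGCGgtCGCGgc
ZNF581: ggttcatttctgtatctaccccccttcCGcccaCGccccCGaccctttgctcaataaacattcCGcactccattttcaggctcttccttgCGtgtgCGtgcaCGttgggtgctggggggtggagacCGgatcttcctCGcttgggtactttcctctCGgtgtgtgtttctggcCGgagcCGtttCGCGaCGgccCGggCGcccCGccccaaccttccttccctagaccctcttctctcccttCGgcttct

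RefSeq promoter windows of 300 bases (250 before to 50 after the start) were matched for 37 of the 43 members. They held a median of 26 CG dinucleotides (range 2 to 42), against 14 over all 35116 windows. At least 20 CG were found in 30 of the 37 windows (81.1%) and in 41.2% of all windows. The letters TATAAA on either strand occurred in 1 member window, that of ZSCAN4 (2.70%), and in 11.5% of all windows. The 16 matched members called lower with UNC0638 had a median of 25.5 CG, and the 18 matched and tested members that did not pass had a median of 28. At least 20 CG were present in all 16 of the former (range 20 to 36) and in 13 of the latter (72.2%, range 12 to 42). These counts describe the windows only, and DNA methylation was not measured.

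The targeted transcripts fell in their own knockdowns, with means of -2.12 for WIZ (adjusted p = 0.00141) and -1.66 for EHMT2 (adjusted p = 0.00234). The arrays were split into 2 sets by the lowest Cy3 background pixel SD, which was 4 or 5 on one set and 11 on the other. The median Cy3 background itself was 28 to 30 in both. Set 1 held 8 arrays, those of UNC0638 replicates 1 and 2 and of WIZ siRNA. Set 2 held 5 arrays, those of UNC0638 replicates 3 to 5 and of G9a siRNA. WIZ siRNA and G9a siRNA thus lie in 1 set each. Over all features, UNC0638 replicate 3 correlated with the G9a siRNA replicates (r = 0.876 and 0.843) more closely than with the other UNC0638 replicates (r from 0.135 to 0.663). The arrays measure RNA of whole cultures, so fewer cells with a transcript and less RNA per cell cannot be told apart. The swapped arrays of 1 replicate, once turned the same way, correlated over all features at 0.037 and 0.038 for UNC0638 and at -0.483 and -0.357 for WIZ siRNA. Over the members the same pairs gave 0.798, 0.733, 0.121 and 0.252. A value below 0 means that differences between features turned with the dye, and the average of each pair was used. All 8 HEK293T markers, among them PAX2, VIM and KRT18, were well above background on 13 of 13 arrays. Among 8 markers of blood, fibroblasts and endothelium, HBB and COL1A2 were above background on 0 arrays, DCN on 2, PECAM1 on 4, PTPRC and CD3E on 10, and COL1A1 and CDH5 on 13.

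With UNC0638, 17 of the 39 tested members fell and 0 rose (limma, adjusted p below 0.05 over 28931 features). Lower calls made up 43.6% of the members and 1.9% of all features tested, and higher calls 1.75% of all features (3.65% in either direction). The median log2 ratio of the members was -0.31, against -0.01 over all features. The mean lay below 0 in 37 of 39 members, and in 54.3% of all features. At an unadjusted p below 0.05, 30 members were lower and 0 higher. Over all 28931 features, 6013 passed at that level, 3357 of them lower. All 5 replicates lay below 0 in 22 members, as in 8.58% of all features. The replicate medians over the members were -0.42, -0.37, -0.35, -0.24 and -0.25 in replicates 1 to 5. In every replicate the members sat below the median of all features.

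**Figure D1:**
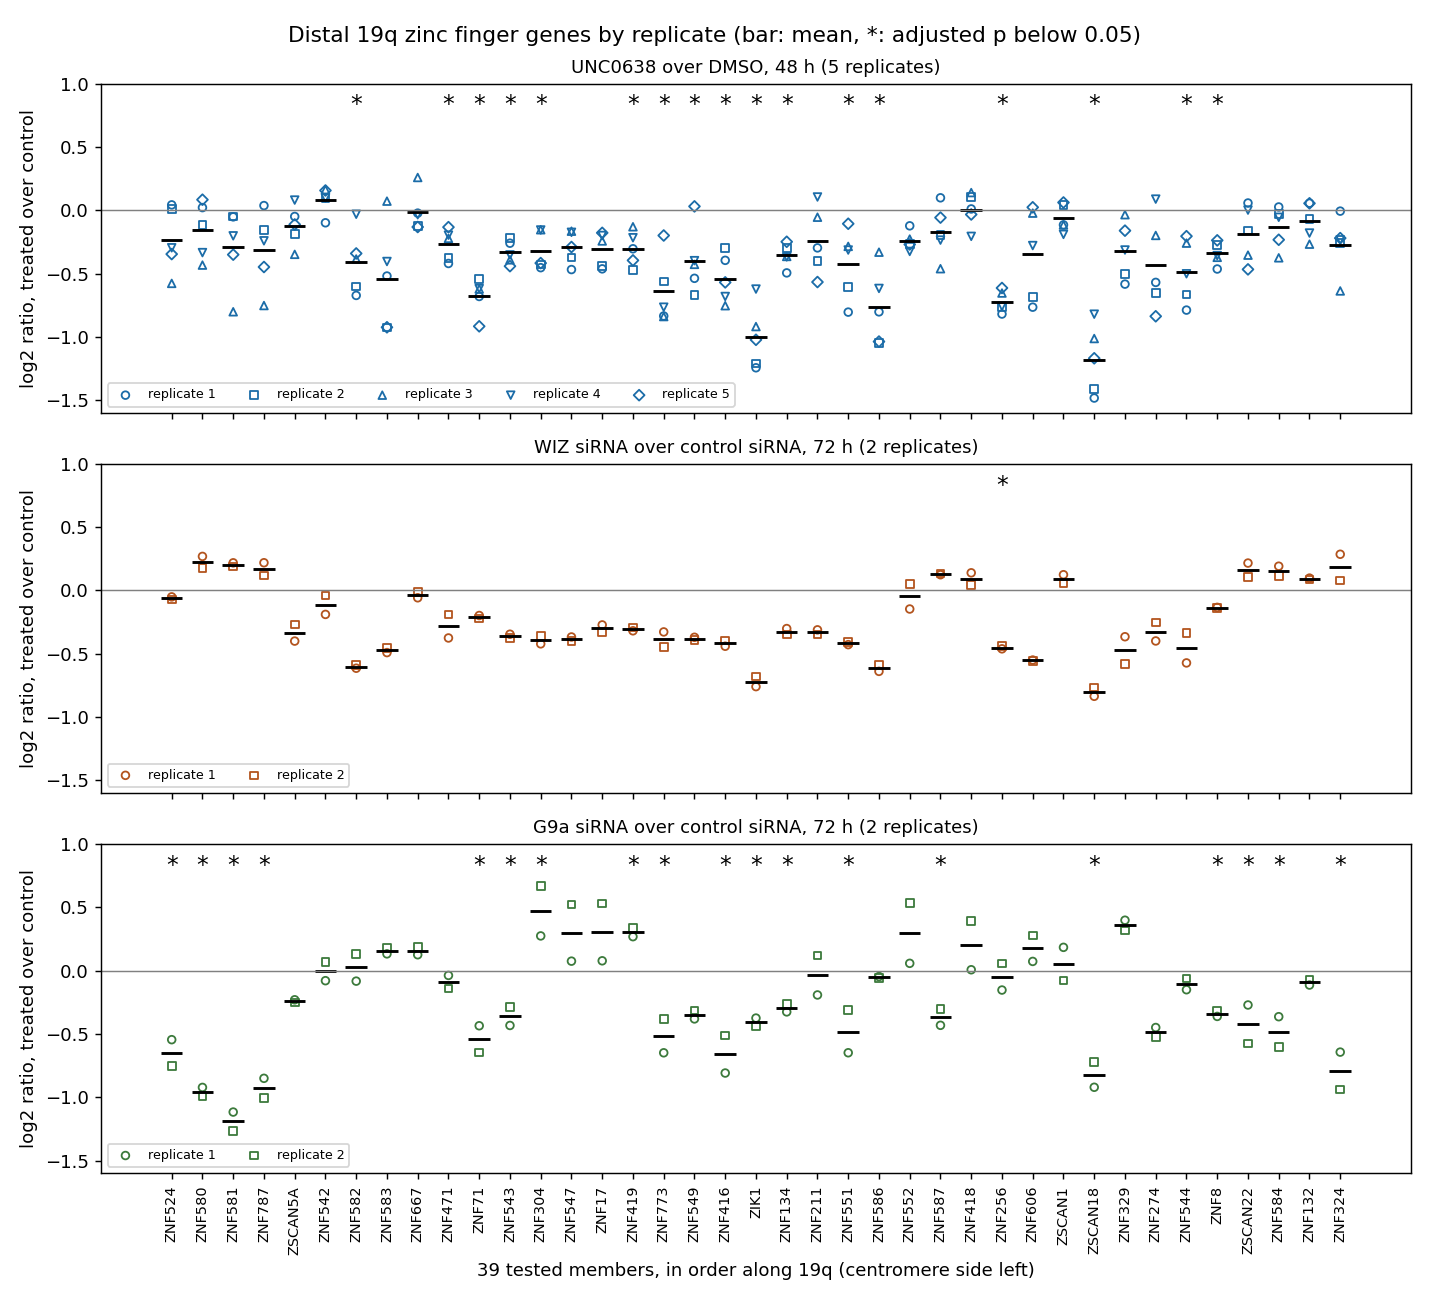
Log2 ratio of treated over control RNA (vertical axis) for the 39 tested members in order along 19q from the centromere side (left), with 1 panel per treatment. Open symbols are biological replicates, black bars are their mean, and an asterisk marks an adjusted p below 0.05. With UNC0638 nearly every bar lies below 0. With WIZ siRNA ZNF580, ZNF581 and ZNF787 near the left end lie slightly above 0, and with G9a siRNA the same genes have the lowest bars.

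ZSCAN18, a SCAN domain gene, had the lowest ratio. Its UNC0638 replicates 1 to 5 read -1.48, -1.41, -1.01, -0.82 and -1.17. All 5 lie well below 0, and replicates 1 and 2 are the lowest. The mean was -1.18 (SE 0.092, adjusted p = 0.000208 by limma), which left 44.1% of the control signal. Its probe at chr19:58595379-58595438 (build 37.1, minus strand) is also listed under a second, uncharacterised locus. For UNC0638 replicates 1 and 2, ZSCAN18 read -1.32 and -1.30 on the arrays with treated RNA labelled Cy3, and -1.65 and -1.52 on their dye swaps.

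ZIK1 encodes a zinc finger protein that binds the RNA-binding protein hnRNP K. Its replicates read -1.24, -1.21, -0.92, -0.62 and -1.02, a mean of -1.004 (SE 0.084, adjusted p = 0.0003) or 49.9% of control. Treated RNA was well above the background on 4 of 7 arrays and control RNA on 7 of 7. A second ZIK1 probe gave a mean of -0.66. Both probes were lower with UNC0638, and the dimmer signal limits how deep a fall the first one can show.

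ZNF256, a KRAB zinc finger gene, had the smallest spread among these leading genes. Its replicates read -0.82, -0.76, -0.65, -0.76 and -0.61, with a mean of -0.72 (SD 0.085, n = 5; adjusted p = 0.000169). ZNF586, also a KRAB gene, had a similar mean and a wide spread. It read -0.80, -1.05, -0.33, -0.62 and -1.04, with a mean of -0.77 (SD 0.302, n = 5; adjusted p = 0.00269). ZNF71 read -0.68, -0.54, -0.62, -0.62 and -0.92, with a mean of -0.68 (adjusted p = 0.000456). No replicate of these genes reached 0.

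The next falls were in zinc finger genes of the same stretch. ZNF773 had a mean of -0.64 (adjusted p = 0.00549), ZNF416 of -0.54 (0.00416) and ZNF544 of -0.48 (0.0158). ZNF551 had a mean of -0.42 (0.0461), ZNF582 of -0.41 (0.034) and ZNF549 of -0.40 (0.0366). ZNF134 had a mean of -0.35 (0.00368). ZNF549 was the one called member with a replicate above 0, at 0.03 in replicate 5. ZNF582 was well above background in the treated RNA on 3 of 7 arrays and in the control RNA on 7 of 7. A second ZNF582 probe gave -0.36. ZNF551 has 2 further probes, at -0.27 and 0.07, so its fall was not seen by every probe. The other called members were ZNF8, ZNF543, ZNF304, ZNF419 and ZNF471, with means from -0.34 to -0.27. ZNF471 was above background in the treated RNA on 2 of 7 arrays and in the control RNA on 1.

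Members that did not pass with UNC0638 include some with large means and uneven replicates. ZNF583, a KRAB gene, read -0.52, -0.93, 0.07, -0.41 and -0.92, with a mean of -0.54 (adjusted p = 0.0532). ZNF274, which carries KRAB and SCAN domains and is known to recruit SETDB1 to zinc finger genes, read -0.57, -0.66, -0.20, 0.09 and -0.84 (mean -0.43, adjusted p = 0.0823). In both genes 1 replicate of set 2 lies above 0. ZNF542, at 0.08, and ZNF418, at 0.00, were the 2 members with a mean above 0. ZNF542 was well above background in the treated RNA on 2 of 7 arrays.

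The number of UNC0638 calls depended on the libraries. It was 11 without replicate 1, 10 without replicate 2 and 15 without replicate 3, all lower. In either direction these fits called 2.9%, 3% and 3.09% of all features. Within set 1 alone (replicates 1 and 2) 24 members were called lower, beside 4.46% of all features in either direction. Within set 2 alone (replicates 3 to 5) the count was 3, beside 0.432%. Those 3 were ZSCAN18 (-1.001, adjusted p = 0.033), ZIK1 (-0.85, 0.0415) and ZNF256 (-0.68, 0.0417). The member median was -0.39 over replicates 1 and 2 and -0.26 over replicates 3 to 5, and in each set 37 of 39 means lay below 0.

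**Figure D2:**
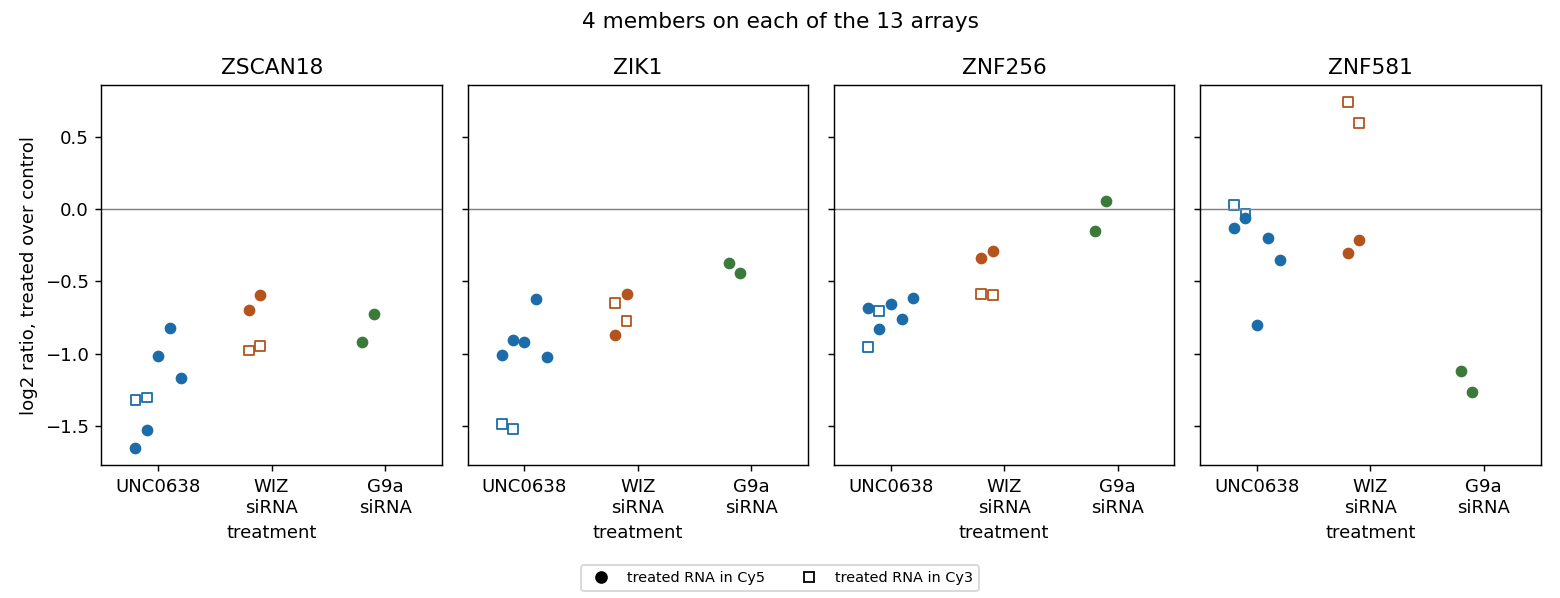
Log2 ratio of treated over control RNA (vertical axis) of ZSCAN18, ZIK1, ZNF256 and ZNF581 on each of the 13 arrays, by treatment. Filled circles have the treated RNA in Cy5 and open squares in Cy3. ZSCAN18 and ZIK1 lie below 0 on 13 of 13 arrays, and ZNF581 under WIZ siRNA lies above 0 in Cy3 and below 0 in Cy5.

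With WIZ siRNA the members had a median of -0.32, against 0.01 over all features. The mean lay below 0 in 29 of 39 members, and in 45% of all features. Only ZNF256 was called, lower, which is 1 of 39 members beside 0.536% of all features lower, 0.0795% higher and 0.615% in either direction. It read -0.46 and -0.44 in replicates 1 and 2 (mean -0.45, SE 0.080, adjusted p = 0.0476). At an unadjusted p below 0.05, 21 members were lower and 0 higher. Over all 28931 features, 2337 passed at that level, 1479 of them lower. Both replicates lay below 0 in 28 members, as in 32% of all features, and above 0 in 10 members. The replicate medians were -0.32 and -0.29. On the 4 single arrays the member median was -0.35 and -0.38 in the Cy3 orientation and -0.30 and -0.29 in the Cy5 orientation, so the member median did not turn with the dye.

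The members with the largest WIZ siRNA ratios did not pass the test. ZSCAN18 read -0.84 and -0.77 (mean -0.80, SE 0.15, adjusted p = 0.051). ZIK1 read -0.76 and -0.68 (mean -0.72, adjusted p = 0.054). ZNF586 had a mean of -0.61 (0.169), ZNF582 of -0.60 (0.12) and ZNF606, a KRAB gene, of -0.55 (0.369). The 2 replicates of each were close, with an SD of 0.057 or less. Second probes of ZIK1 and ZNF582 had smaller WIZ siRNA falls, with means of -0.29 and -0.44. The error in the test is larger because the spread is shared with the UNC0638 and G9a siRNA replicates. Where WIZ siRNA was fitted with the set 1 arrays alone, 24 members were called, 23 lower and 1 higher, beside 9.87% of all features. Without UNC0638 replicate 3 the count was 4 (beside 1.2% of all features), and without UNC0638 replicate 4 it was 2 (0.37%). ZNF256 was not among the 2, and it also lost its call with no background correction (adjusted p = 0.0807), with the authors' deposited log2 ratios (0.229), with the array set as a block (0.167) and with the replicate block (0.0573). The count was 0 without UNC0638 replicate 1 or 2 and without either replicate of WIZ siRNA or of G9a siRNA. The unadjusted count in those 6 fits was between 9 and 21 members.

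**Figure D3:**
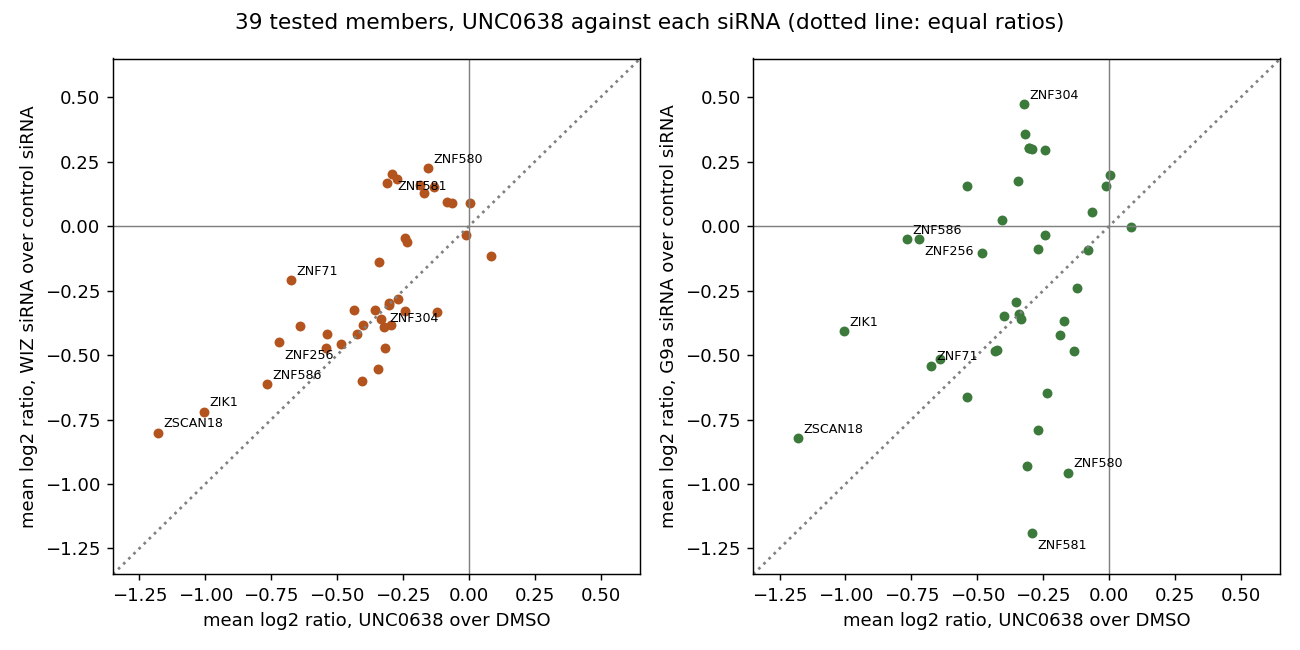
Mean log2 ratio of each tested member with UNC0638 (horizontal axis) against WIZ siRNA (left) and G9a siRNA (right, vertical axes). Points are the 39 members and the dotted line marks equal ratios. ZSCAN18, ZIK1 and ZNF586 lie low with both UNC0638 and WIZ siRNA, while ZNF581 and ZNF580 lie lowest with G9a siRNA.

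Across the 39 members, the UNC0638 means and the WIZ siRNA means correlated at r = 0.718. These treatments have different controls (DMSO and control siRNA) and times. Within set 1, UNC0638 replicates 1 and 2 against WIZ siRNA gave 0.880. The 2 array sets of UNC0638 correlated with each other at 0.652. UNC0638 means and G9a siRNA means correlated at 0.232, and at 0.482 when only UNC0638 replicates 3 to 5 were used. Members are not independent, since each value shares its probe across treatments, so the correlations describe these points only. No member differed between WIZ siRNA and UNC0638 by limma at an adjusted p below 0.05, beside 0.84% of all features (0.0933% higher and 0.747% lower with WIZ siRNA). At an unadjusted p below 0.05, 8 members differed, all with the WIZ siRNA ratio above the UNC0638 ratio. Over all 28931 features, 3248 differed at that level, 1730 of them lower with WIZ siRNA. Within set 1 alone, where both treatments were dye-swapped, 4 members differed, all higher with WIZ siRNA, beside 4.57% of all features. In the fit over all replicates the lowest p was that of ZNF71, with a difference of 0.47 (SE 0.11, adjusted p = 0.126).

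With G9a siRNA 17 members fell and 2 rose. Lower calls made up 43.6% of members, beside 18.2% of all features, and higher calls 5.13%, beside 15% of all features (33.2% in either direction). The member median was -0.24, against -0.01 over all features. Among 14 other tested genes of the same stretch, 50% were called lower, with a median of -0.31. With centring on the median and no loess, 21 members were lower and 0 higher. The share of all features called in that run is not given here, so the count cannot be set against it. The mean was below 0 in 27 of 39 members, and in 51.3% of all features. At an unadjusted p below 0.05, 20 members were lower and 6 higher. Over all 28931 features, 12521 passed at that level, 6762 of them lower. The count was 12 without G9a siRNA replicate 1 (8 lower, 4 higher). Without replicate 2 it was 0 of 39 by limma, as it was over all features, while 15 members had an unadjusted p below 0.05.

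ZNF581 and ZNF580, neighbouring genes for short zinc finger proteins without a KRAB domain, had the lowest ratios. ZNF581 read -1.12 and -1.27 (mean -1.19, SE 0.16, adjusted p = 0.00291), or 43.8% of control. ZNF580 read -0.92 and -0.99 (mean -0.96, adjusted p = 0.00289). ZNF787, also without a KRAB domain, read -0.85 and -1.01 (mean -0.93, adjusted p = 0.00366). ZNF524 read -0.55 and -0.75 (mean -0.65, adjusted p = 0.00746). These 4 genes are the first of the row on the centromere side. All 4 lay between -0.31 and -0.16 with UNC0638 and between -0.06 and 0.22 with WIZ siRNA, and none of them passed there.

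Dye moved with these 4 values, and base composition with those of ZNF581, ZNF580 and ZNF524. On the WIZ siRNA arrays ZNF581 read 0.74 and 0.59 where Cy3 labelled the treated RNA, and -0.30 and -0.22 where Cy5 did. ZNF580 read 1.09 and 0.74 in Cy3 and -0.55 and -0.38 in Cy5. The G9a siRNA arrays exist in the Cy5 orientation alone. On UNC0638 replicates 1 and 2, ZNF580 turned the other way, at -0.09 and -0.23 in Cy3 and 0.13 and -0.005 in Cy5. ZNF581 read 0.03 and -0.03 in Cy3 and -0.13 and -0.06 in Cy5 there. A dye effect averaged over the swapped pairs of both treatments was subtracted. The G9a siRNA means became -0.94 for ZNF581, -0.67 for ZNF580, -0.53 for ZNF787 and -0.38 for ZNF524, and each still passed. The dye effect of the WIZ siRNA pairs alone was not tested. The probes of ZNF581 and ZNF580 hold 55% G or C and that of ZNF524 60%. The ZNF787 probe holds 43.3%, beside a median of 41.7% over the tested members. Other features at 55 to 60% had a median of -0.38 with G9a siRNA, and those at 60% or above had -0.65. With the trend over probe GC removed, ZNF581 stood at -0.73, ZNF580 at -0.49 and ZNF787 at -0.93, all past the threshold, and ZNF524 at 0.05 (adjusted p = 0.677).

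**Figure D4:**
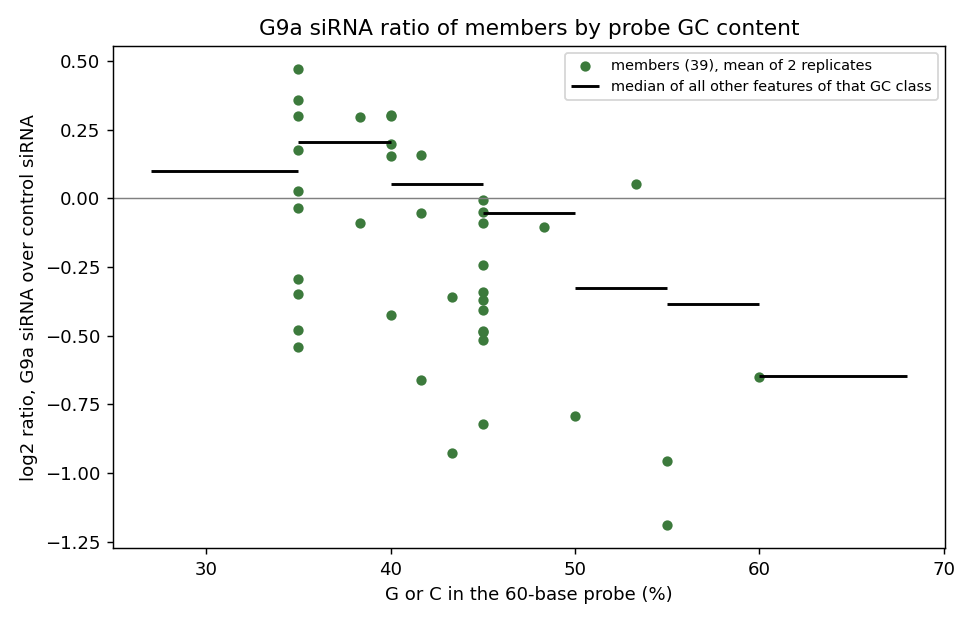
Mean log2 ratio with G9a siRNA (vertical axis) of the 39 tested members against the percentage of G or C in the 60-base probe (horizontal axis). Green points are members, and black lines are medians of the other features with a probe sequence in each GC class. These medians run from 0.21 at 35 to 40% to -0.65 at 60% and above. ZNF524 lies on the line of its class and ZNF581 and ZNF580 lie below theirs.

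Further falls with G9a siRNA joined genes of both ends and of the middle. ZSCAN18 read -0.92 and -0.72 (mean -0.82, adjusted p = 0.00406). ZNF324, the last gene of the row and a KRAB gene, read -0.64 and -0.94 (mean -0.79, adjusted p = 0.00379). ZNF416 had a mean of -0.66 (0.00413), ZNF71 of -0.54 (0.00413) and ZNF773 of -0.51 (0.0249). ZNF584 had a mean of -0.48 (0.00826), ZNF551 of -0.48 (0.0373) and ZSCAN22, a SCAN domain gene, of -0.42 (0.0344). The further ZNF551 probes read -0.22 and 0.07 with G9a siRNA, so its fall was not seen by every probe. With the mean over its probes ZNF551 stood at -0.21 and lost its call (adjusted p = 0.101 by limma). The remaining lower calls were ZIK1 (-0.41), ZNF587 (-0.37), ZNF543 (-0.36), ZNF8 (-0.34) and ZNF134 (-0.29). The ZNF587 probe also matches a second locus by sequence, and a second ZNF587 probe read 0.13 with G9a siRNA, so this call is uncertain. ZNF582, ZNF542, ZNF667, ZNF471, ZNF418, ZSCAN1 and ZNF132 were not well above background in the G9a siRNA treated RNA, and none of them was called there.

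The 2 rises were in ZNF304, a KRAB gene known for recruiting silencing factors to the INK4-ARF locus, and in the KRAB gene ZNF419. ZNF304 read 0.27 and 0.67 with G9a siRNA (mean 0.47, SE 0.11, adjusted p = 0.0124). With UNC0638 it read -0.45, -0.43, -0.15, -0.16 and -0.42 (mean -0.32, adjusted p = 0.0425). ZNF419 read 0.27 and 0.33 with G9a siRNA (mean 0.30, adjusted p = 0.0273), and had a mean of -0.30 with UNC0638 (adjusted p = 0.0174). Both genes were picked because their calls were opposite, so the gap between their replicates follows largely from that choice. Both rises lost their call with median centring (0.22 and 0.07), with the GC trend removed (0.21 and 0.21) and with the array set as a block (0.37 and 0.23). ZNF304 also lost it with the dye effect subtracted (0.28), and ZNF419 with the mean over its 2 probes (0.18).

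Lower with both UNC0638 and G9a siRNA were 9 of the 39 tested members, beside 0.861% of all features. These are 9 of the 17 members called lower in each treatment. Over all features, the 0.861% lay within 1.9% lower with UNC0638 and 18.2% lower with G9a siRNA. A similar part of the UNC0638 lower calls was thus shared over all features. Another 8 were called lower with UNC0638 and not with G9a siRNA, beside 1.04% of all features, and 8 the other way round, beside 17.3%. No call was made in 14 members with UNC0638, WIZ siRNA or G9a siRNA. The 9 were ZSCAN18, ZIK1, ZNF71, ZNF773, ZNF416, ZNF551, ZNF134, ZNF8 and ZNF543. Of these, ZNF551 was not lower by every probe in either treatment. ZNF256 and ZNF586 were lower with UNC0638 and read -0.05 each with G9a siRNA.

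The difference between G9a siRNA and UNC0638 was called in 11 members, beside 12.7% of all features. In 9 the G9a siRNA ratio was the higher and in 2 the lower, beside 6.08% and 6.58% of all features, and with median centring the split was 4 and 6. The lower ones were ZNF581, with a difference of -0.90 (SE 0.19, adjusted p = 0.0241), and ZNF580, with -0.80 (0.0193). The higher ones included ZNF304 (0.79, adjusted p = 0.0185), ZNF586 (0.72, 0.0364), ZNF329 (0.68, 0.0267), ZNF256 (0.67, 0.0154), ZNF17 (0.61, 0.0269) and ZNF419 (0.61, 0.0185). A second ZNF329 probe read -2.91 with G9a siRNA, and with the mean over its probes the ZNF329 difference turned to -0.67. The comparison within set 2, where both treatments were hybridised in the same dye orientation, called 0 members and 0% of all features by limma, with 12 members at an unadjusted p below 0.05. In set 2 the difference was 0.63 for ZNF256, 0.71 for ZNF304 and -0.74 for ZNF581, each with an adjusted p of 0.231. The count was 4 without UNC0638 replicate 1 or 2 or either WIZ siRNA replicate, 5 without UNC0638 replicate 4, 6 without G9a siRNA replicate 1 and 0 without its replicate 2.

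Between G9a siRNA and WIZ siRNA 12 members differed, beside 19.8% of all features. The G9a siRNA ratio was higher in 7 and lower in 5, beside 8.89% and 10.9% of all features, and with median centring the split was 2 and 8. The lower ones were ZNF581 (-1.39, adjusted p = 0.00952), ZNF580 (-1.18, 0.00821), ZNF787 (-1.10, 0.0138), ZNF324 (-0.97, 0.0135) and ZNF584 (-0.64, 0.0214). All 5 read above 0 in Cy3 and below 0 in Cy5 on the WIZ siRNA arrays, and G9a siRNA was read in Cy5 alone. The higher ones included ZNF304 (0.86, 0.0124), ZNF329 (0.83, 0.017) and ZNF547 (0.68, 0.0208). With the mean over its probes the ZNF329 difference turned to -1.13 (adjusted p = 0.0776). ZNF582 was also called, though its treated RNA was not well above background with G9a siRNA. These treatments lie in different array sets, and with the array set as a block the count was 0 by limma (11 at an unadjusted p below 0.05). The count was also 0 without either WIZ siRNA replicate or without G9a siRNA replicate 2.

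Levels also varied with position along the arm. The 4 members nearest the centromere (ZNF524 to ZNF787) and the 4 farthest (ZSCAN22 to ZNF324), stretches drawn after the values were seen, had medians of 0.19 and 0.16 with WIZ siRNA. The 31 members between them (ZSCAN5A to ZNF8) had a median of -0.36. On the WIZ siRNA arrays each of the first 4 read above 0 in Cy3 and below 0 in Cy5. Their Cy5 readings ran from -0.55 to -0.22, beside member medians of -0.30 and -0.29 on those arrays. ZNF584 and ZNF324 of the last 4 turned with the dye in the same way. The positive medians thus average opposite readings in part, and dye was not tested by stretch. With UNC0638 the medians were -0.26, -0.16 and -0.34 in the same order (first 4, last 4, between), and all 17 calls fell in the stretch between. With G9a siRNA they were -0.94, -0.45 and -0.05, with 4, 3 and 10 lower calls. Median probe GC was 55%, 45% and 40%, and its part in these levels was not tested by stretch. By 1 Mb window, the 6 members at 57 Mb had medians of -0.31, -0.33 and 0.10 with UNC0638, WIZ siRNA and G9a siRNA, with 4, 0 and 2 lower calls and 1 rise, ZNF304. The 9 members at 56 Mb had medians of -0.23, -0.06 and -0.24, and the 24 members from 58 Mb on had -0.34, -0.33 and -0.32.

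The 5 tested members with a SCAN domain (ZSCAN1, ZSCAN5A, ZSCAN18, ZSCAN22 and ZNF274) had medians of -0.18 with UNC0638, -0.33 with WIZ siRNA and -0.42 with G9a siRNA. With UNC0638 1 of the 5 fell, ZSCAN18, and with G9a siRNA 2 fell, ZSCAN18 and ZSCAN22. ZSCAN5A read -0.40 and -0.27 with WIZ siRNA, and ZSCAN1 was above background in the treated RNA on 2 of 7 UNC0638 arrays.

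Further probes served as a partial second measurement. For 12 tested members, 13 further probes passed the filter. They had the sign of the first probe in 11 cases with UNC0638, 10 with WIZ siRNA and 9 with G9a siRNA. Their medians were -0.36, -0.29 and -0.20. Another 21 zinc finger genes had no coordinate in the files and were placed among the members by the order of genes in RefSeq. With UNC0638 7 of them were lower and 0 higher, with a median of -0.20. The 7 were ZNF776 (-0.72), ZNF264 (-0.63), ZNF530 (-0.58), ZNF417 (-0.47), ZNF550 (-0.43), ZNF805 (-0.30) and ZNF749 (-0.20). ZNF776 also had the lowest WIZ siRNA mean of the 21, at -0.76 (adjusted p = 0.0667).

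Zinc finger genes elsewhere were counted the same way. Between 24 and 56 Mb of chromosome 19, 21 of 70 were lower and 1 higher with UNC0638, with medians of -0.23, -0.26 and 0.10 in the 3 treatments. Below 24 Mb, 9 of 50 were lower with UNC0638, and the medians were -0.18, -0.08 and 0.06. Outside chromosome 19, 15 of 220 were lower and 3 higher, and the medians were -0.02, -0.01 and 0.08. The share of lower calls with UNC0638 thus ran from 43.6% in the distal 19q members through 30% and 18% to 6.82%. It was 33.3% in the 21 genes placed among the members by RefSeq order. Their median of -0.20 was no lower than that of the genes between 24 and 56 Mb. The difference between these shares was not tested. In UNC0638 replicates 1 and 2 the genes between 24 and 56 Mb had medians of -0.44 and -0.39, no higher than the members at -0.42 and -0.37. In G9a siRNA replicates 1 and 2 they had -0.01 and 0.20, against -0.23 and -0.25 in the members.

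**Figure D5:**
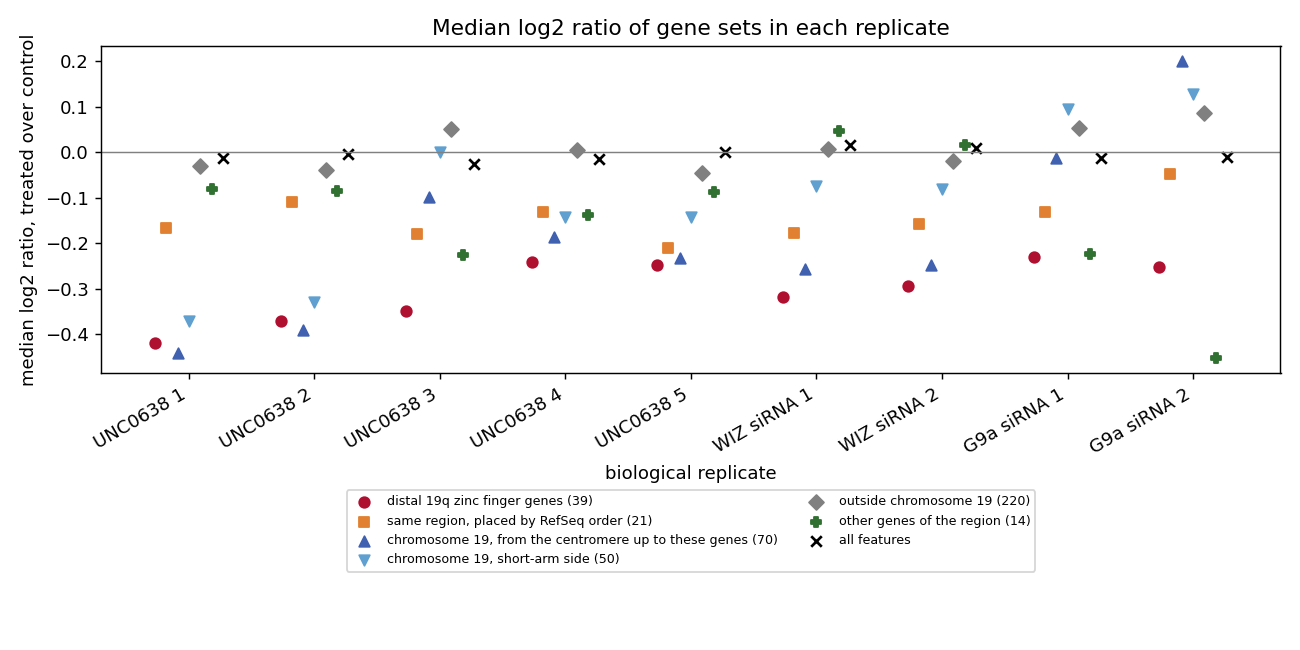
Median log2 ratio of treated over control RNA (vertical axis) of 7 gene sets in each of the 9 biological replicates (horizontal axis). Symbols are gene sets, with the number of tested genes of each set in the legend, and crosses are all features. The distal 19q members lie below all features in 9 of 9 replicates, and zinc finger genes outside chromosome 19 stay near 0.

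The same stretch held 14 other tested genes with a probe coordinate, and genes without a coordinate were not counted. Among the 14 are zinc finger genes outside the symbol pattern, such as ZIM2, ZBTB45 and FIZ1. With UNC0638 the 14 had 1 fall, the pseudogene TRAPPC2P1 (-0.54, adjusted p = 0.00918), and 1 rise, NLRP11 (0.39, 0.00318). The medians of the 14 were -0.16 with UNC0638, 0.03 with WIZ siRNA and -0.31 with G9a siRNA. With G9a siRNA 7 of the 14 fell (50%), beside 43.6% of the members and 18.2% of all features. TRIM28, the KRAB corepressor gene at the end of the arm, read -0.09 with UNC0638 and 0.16 with WIZ siRNA, neither past the threshold, and fell by 0.70 with G9a siRNA (adjusted p = 0.00291). Of 30 genes of the KRAB corepressor and H3K9 methylation machinery, UNC0638 raised TASOR (0.33, adjusted p = 0.0321), a subunit of the HUSH silencing complex, and lowered MORC2 (-0.28, 0.0467), an ATPase that works with it. WIZ siRNA lowered WIZ alone among them. With UNC0638 these are 3.33% of the list in each direction, beside 1.75% and 1.9% of all features. With G9a siRNA 10 rose (33.3%) and 5 fell (16.7%), beside 15% and 18.2% of all features. The part of these changes in the member values was not tested.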

How the data were processed

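Total RNA of HEK293T cells was measured on 13 two-channel Agilent Human 8x60K arrays. Mean spot and median background intensities are as the authors deposited them, before correction. The deposited files also hold the authors' log2 ratio of the channels, made by background subtraction and normalization per the file headers. The authors' deposited series table holds log10 ratios, whose direction was set per array against that array's log2 ratio (r from -0.918 to -0.877 on 8 arrays, which were turned, and from 0.925 to 0.971 on 5). Its slopes on the log2 scale were 0.301 to 0.432 in size and its column medians -0.01 to 0.00818, with the centring and filter not given in the sources used here. Scanner, software and slide are likewise not given.

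Background was corrected with normexp (offset 50) over 62976 spots. Loess then ran array by array, with 4259 control spots at weight 0 (limma 3.58.1, R 4.3.3). Ratios were turned to treated over control from the dye labels, and swapped arrays of 1 replicate were averaged, giving 9 biological replicates. Detection meant a signal over 2.6 background SDs above the median background. Probes detected on 50% or more of the arrays of any RNA group were kept (34619 of 42405). The brightest probe per gene was taken, and each probe without a symbol was kept as a feature of its own. This left 28931 features, 18939 of them with a symbol. Median spot brightness was 146 to 308 in Cy3 and 120 to 468 in Cy5, and precision is limited by how few arrays there are. The limma fit (lmFit and eBayes) had a mean per treatment, no covariate, 6 residual and 3.33 prior degrees of freedom, and Benjamini-Hochberg adjustment over all features at 0.05. The 3 contrasts between treatments keep the difference between 48 h and 72 h within them. The script was tested on simulated data. Promoters came from RefSeq (GRCh38.p14) by symbol. Probe coordinates are on build 37.1.

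Members, gene lists and tests were chosen with earlier results of these data known. Named genes were the called members with the largest changes (up to 12 per direction and treatment, up to 8 per contrast), the 5 largest others where fewer than 5 passed, and members called in opposite directions. Array sets, fitted alone, were added after seeing the data. Replicate numbers were not shown to pair the samples: deviations of same-numbered replicates correlated between -0.286 and 0.365. In groups of 2 replicates the deviations mirror each other, so these values cannot settle whether samples were paired. One marker of the list for other cell types is not reported here.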

Additional observations from a re-analysis of the deposited data

Results flagged for a closer look

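In 2 of 40 groups of 5 UNC0638 replicates tested, 1 replicate lay apart from the others by Dixon's criterion, and chance alone gives about 1 such group in 20. ZNF667 read 0.259 in UNC0638 replicate 3, where the nearest other replicate read -0.0228, a gap of 0.72 of the whole range. ZNF542 read -0.0989 in replicate 1, where the nearest other replicate read 0.0969, a gap of 0.749 of the range. In treated RNA both probes passed background on 2 of 7 UNC0638 arrays, and neither gene was called in any treatment.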

How the results depend on the processing

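The direction of the member medians held under every alternative run, and in UNC0638 every call was a fall. The authors' log10 table was fitted on the 23 members it covers throughout. That fit called 7 members for UNC0638 (beside 3.84% of the features fitted), 0 for WIZ siRNA (0.679%) and 10 for G9a siRNA. Between treatments it called 2 for WIZ siRNA minus UNC0638 and 6 for G9a siRNA minus UNC0638. Its medians were -0.43, -0.42 and -0.28 for UNC0638, WIZ siRNA and G9a siRNA. With the authors' log2 ratios WIZ siRNA had 0 calls (20 at an unadjusted p below 0.05), and the WIZ and G9a siRNA medians were -0.35 and -0.29. Fits limited to the replicates compared called 10 members for UNC0638 (beside 1.5% of all features), 30 for WIZ siRNA (25 lower and 5 higher, beside 23.7%), 4 for G9a siRNA minus UNC0638 (3.01%) and 21 for G9a siRNA minus WIZ siRNA (37%). With the array set as a block they were 0 for WIZ siRNA (14 unadjusted), 4 for G9a siRNA minus UNC0638 and 0 for G9a siRNA minus WIZ siRNA, and the siRNA medians were -0.24 and -0.27. Within set 1 alone WIZ siRNA had 24 calls and WIZ siRNA minus UNC0638 4, and within set 2 alone UNC0638 had 3 and G9a siRNA minus UNC0638 0. WIZ siRNA had 3 calls with the dye effect subtracted, 3 with the GC trend removed (median -0.30) and 2 with the mean over probes (median -0.28). Medians also moved with median centring (-0.36 for WIZ and -0.44 for G9a siRNA), with no filter on dim probes (-0.30 and -0.092), with the mean over probes (-0.21 for G9a siRNA) and without probes of several symbols (-0.17 for G9a siRNA).

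The replicate block gave 32 calls for UNC0638 (beside 25.1% of all features), 5 for WIZ siRNA (3.73%) and 23 for G9a siRNA (46.6%). Between treatments it gave 2 (WIZ siRNA minus UNC0638, 1.84%), 22 (G9a siRNA minus UNC0638, 36.8%) and 21 (G9a siRNA minus WIZ siRNA, 39.1%), with siRNA medians of -0.18 and -0.17. The replicate numbers are not shown to pair the samples.

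Leaving out 1 replicate at a time gave 10 to 16 calls and medians of -0.33 to -0.29 for UNC0638. It gave 0 to 4 calls and medians of -0.32 to -0.29 for WIZ siRNA, and 0 to 21 calls and medians of -0.25 to -0.23 for G9a siRNA. Between treatments the counts were 0 throughout (WIZ siRNA minus UNC0638), 0 to 16 (G9a siRNA minus UNC0638) and 0 to 18 (G9a siRNA minus WIZ siRNA). ZNF524 under G9a siRNA turned to 0.046 with the GC trend removed, and ZNF329 turned to -0.67 (G9a siRNA minus UNC0638) and -1.13 (G9a siRNA minus WIZ siRNA) with the mean over probes. The cause of these changes was not tested. Signal over background limits ZNF542, ZNF667, ZNF471, ZSCAN1 and ZNF132, and the G9a siRNA values of ZNF582 and ZNF418.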
